A study of Arabidopsis thaliana with 34 samples.

Results

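Whole seedlings of Arabidopsis thaliana that carry the vrn2-5 allele were compared with wild-type Col-0 seedlings, gene by gene, in polyadenylated RNA. The comparison rests on 6 of the 34 samples of the study, 3 libraries of Col-0 and 3 of vrn2-5, and on all 18480 genes of the seedling table, of which 16820 passed a minimum mean of 10 normalized reads over the 12 seedling libraries and were tested. The other seedling genotypes, prt6-1 and vrn2-5 prt6-1 with 3 libraries each, entered the same fit. They also show the named genes in another background, prt6-1 being an allele of PRT6, a ubiquitin ligase that recognises N-degrons. Rosettes labelled pif4-2 and vrn2-5 pif4-2, with 2 libraries each, give the same vrn2-5 allele in another tissue where every plant also carries pif4-2. VRN2-YFP was immunoprecipitated from seedlings of vrn2-5 that express the fusion from the VRN2 promoter, and H3K27me3 from Col-0 and vrn2-5 seedlings, 3 replicates each. The sources used here do not give the age of the plants or their light and temperature. The labels do not say whether replicates were grown apart, so p-values measure the spread between these libraries, which may be technical. Only 1 vrn2-5 allele was studied, and a difference between the lines at a gene linked to the mutation or segregating in the background cannot be told apart here from an effect of VRN2.

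VRN2 is the zinc-finger subunit of a plant Polycomb repressive complex 2, related to EMF2 and FIS2. The complex holds a methyltransferase (CLF, SWN or MEA) together with FIE and MSI1, and places the repressive mark H3K27me3 on chromatin. VRN2 is best known for keeping the flowering repressor FLC silent after winter cold, and its protein is an N-degron substrate that the PRT6 pathway removes. The study's title places VRN2 in the light-triggered repression of PIF signalling, the pathway through which PIF transcription factors promote growth.

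Depth was very uneven. Col-0 replicate 3 and vrn2-5 replicate 1 held 20006773 and 23017643 reads and are called deep below, while the other 4 libraries held 1208836 to 1786079 and are called shallow. A single read was worth 0.289 and 0.266 normalized reads in the deep libraries and 3.35 to 5.00 in the shallow ones. The first principal component of the 6 libraries, with 35.3% of the variance, placed both replicate 3 libraries at the positive end, at 53.0 and 69.9, and the other 4 at -61.4 to -0.872. Genotype therefore did not lead the variation between libraries. A further feature touches many large differences: some genes were listed at 0 in a library although the other 2 libraries of that genotype predicted at least 10 reads. There were 203 to 262 such genes in each shallow library, 35 in the deep library of Col-0 and 45 in that of vrn2-5. TIC, a component of the circadian clock, read 525 and 372 normalized reads in vrn2-5 replicates 1 and 3 and 0 in replicate 2. NLP7, a regulator of the nitrate response, read 489 and 771 there and again 0 in replicate 2. Of all genes tested, 4.70% had such a zero in at least 1 of the 6 libraries, against 46.4% of the 379 genes with a log2 difference of at least 1 and 46.5% of the 493 with one of at most -1.

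**Figure D1:**
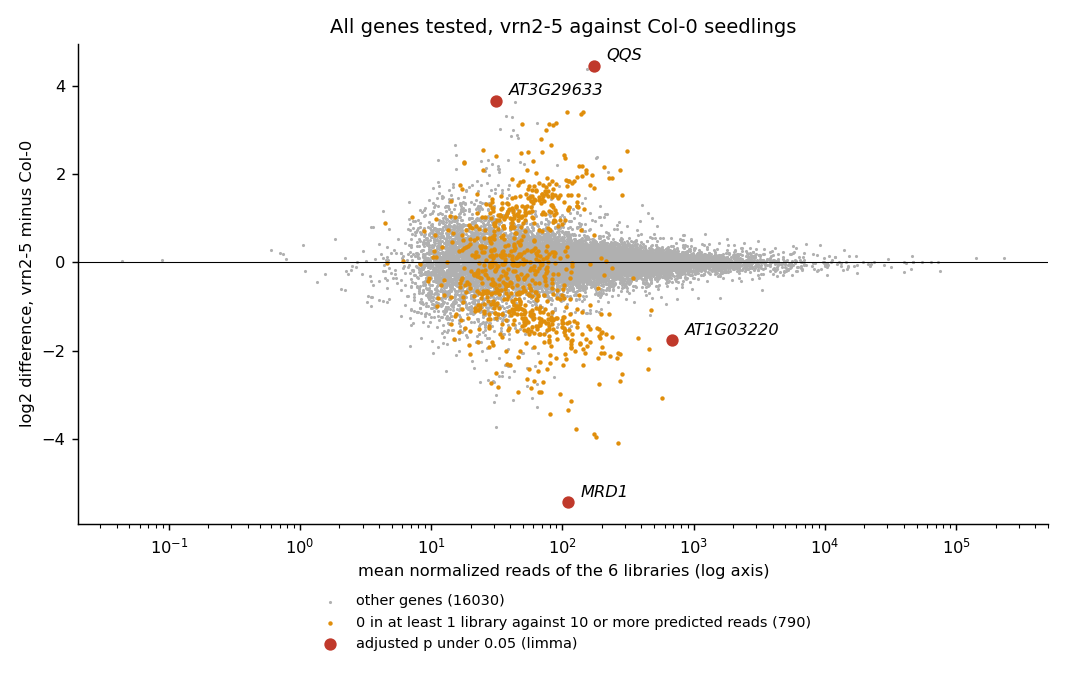
Log2 difference between vrn2-5 and Col-0 (vertical axis, on the log2 scale of normalized reads + 5) against the mean normalized reads of the 6 libraries (horizontal log axis), 1 point per gene tested. The 4 genes with an adjusted p under 0.05 are red and named, and the 790 genes listed at 0 in at least 1 library against 10 or more predicted reads are orange and fill much of the space beyond a difference of 1 either way.

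VRN2 itself (AT4G16845, chromosome 4, 9476069 to 9479878, plus strand, TAIR10) was lower in every vrn2-5 library but still gave reads. Recovered reads numbered 31, 46 and 468 for Col-0 but 188, 9 and 15 for vrn2-5, or 138 normalized reads (SD 23.5) against 48.4 (SD 3.00, n = 3 each). The groups did not overlap, and summed over libraries Col-0 held 2.85 times as many reads for VRN2 per total, with an exact 95% counting interval of 2.43 to 3.36. The difference of -1.41 (SE 0.24, 95% interval -1.94 to -0.88) missed the threshold by limma (adjusted p = 0.293) and by edgeR (adjusted p = 0.254) and passed by DESeq2 (adjusted p = 0.00362). The remaining VRN2 transcript lies within the gene as counted, and which part of it the reads cover was not analysed here.

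The other subunits of the complex stayed close to their Col-0 level. The methyltransferase SWN differed by -0.02 (SE 0.20), the VRN2 relative EMF2 by 0.06 (SE 0.16), the WD40 subunits MSI1 by 0.01 (SE 0.19) and FIE by 0.07 (SE 0.19), and the methyltransferase CLF by -0.22 (SE 0.45). The 95% intervals of the first 4 exclude a change of 2-fold either way, and that of CLF, which ranged from 22.5 to 99.1 normalized reads among Col-0 libraries, does not. MEA and FIS2, which act in the seed, were not among the genes of the table. Of 9 tested partners in PRC1 and the VEL family 6 were positive, with a median of 0.12. ULT1, a trithorax-group factor that opposes Polycomb, read 116, 106 and 122 in Col-0 against 159, 155 and 171 in vrn2-5. These groups did not overlap, yet the difference of 0.47 (SE 0.23) did not pass (adjusted p = 1 by limma). REF6, a demethylase that removes H3K27me3, read 86.2, 92.1 and 62.9 in Col-0 against 30.4, 15 and 23.5 in vrn2-5, again without overlap. Its difference of -1.63 (SE 0.52) did not pass either (adjusted p = 1 by limma), and it stood at -0.72 (SE 0.52) in vrn2-5 prt6-1 against prt6-1 and -0.82 (SE 0.57) in rosettes. The related demethylase ELF6 stood at 0.18 (SE 0.18). Groups did not overlap for 5.5% of all genes tested, which is the background for each such statement on seedlings.

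Across the transcriptome limma called 4 genes (0.0238% of 16820), 2 higher (0.0119% of the genes tested) and 2 lower (0.0119%). MRD1, named for its response to the loss of MTO1, read 195, 212 and 251 normalized reads in Col-0 against 0.533, 0 and 0 in vrn2-5. AT1G03220, of the aspartyl protease family, read 1286, 871 and 1023 against 294, 280 and 342. QQS, an orphan gene that affects leaf starch, read 15, 0 and 30.3 against 256, 380 and 365. In all 3 of these the vrn2-5 libraries lay wholly on one side of Col-0, with no overlap. AT3G29633, of no known role here, had no read in any Col-0 library and 68.2, 84.9 and 33.5 normalized reads in vrn2-5, which is 283 reads and at least 85.0-fold higher if the whole Col-0 group is set to a floor of 3 reads. MRD1 held 982 reads in Col-0 and 2 in vrn2-5, a ratio of 545 (exact counting interval 150 to 4506). Intervals and floors cover counting error only.

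By limma the log2 differences were -5.43 for MRD1 (95% interval -6.35 to -4.51; adjusted p = 0.000988), -1.77 for AT1G03220 (-2.17 to -1.36; adjusted p = 0.00833), 3.66 for AT3G29633 (2.80 to 4.52; adjusted p = 0.00833) and 4.45 for QQS (3.25 to 5.66; adjusted p = 0.0249). EdgeR on the recovered reads called the same 4 genes (0.0238%; 331 genes at an unadjusted p under 0.05, 1.97%), with adjusted p between 0.00867 and 0.0216. Between the deep libraries alone, 1 against 1, the differences were -5.53, -1.78, 3.87 and 2.88 in that order of genes, and between the shallow ones, 2 against 2, -5.38, -1.76, 3.56 and 5.24. The calls depend on the fit and on single libraries. With only the 6 libraries of the comparison in the limma fit, MRD1 alone passed, and AT1G03220 (adjusted p = 0.148), AT3G29633 (adjusted p = 0.359) and QQS (adjusted p = 0.943) did not. AT1G03220 and AT3G29633 both missed at adjusted p = 0.0593 without Col-0 replicate 1 and 0.0552 without vrn2-5 replicate 2, all by limma. QQS missed by limma on leaving out the first Col-0 library (adjusted p = 0.106), the second vrn2-5 library (adjusted p = 0.172) or the third (adjusted p = 0.189). MRD1 kept its call whichever of the 6 libraries was left out. Leaving out a deep library raised the number of calls, to 23 for that of Col-0 and 17 for that of vrn2-5, and leaving out a shallow one gave 1 (Col-0 replicate 1), 4 (Col-0 replicate 2), 2 (vrn2-5 replicate 2) or 3 (vrn2-5 replicate 3).

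**Figure D2:**
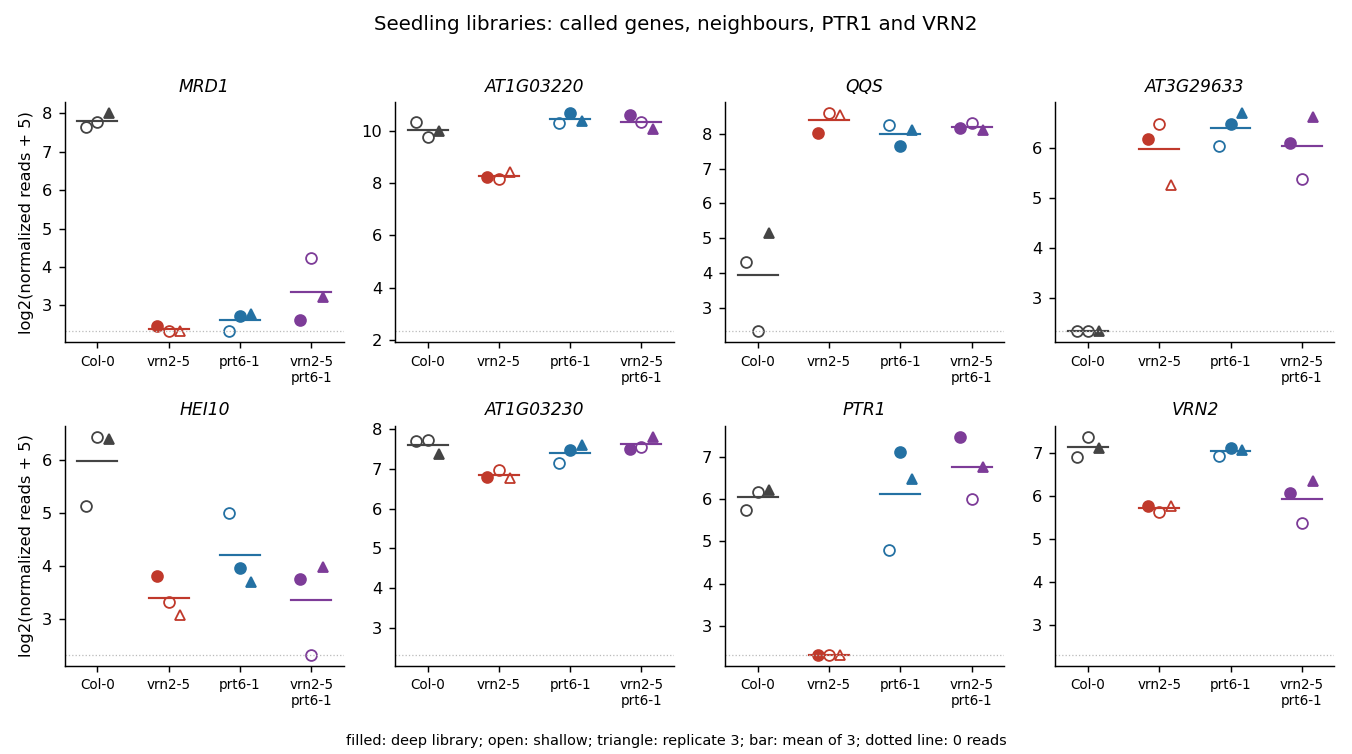
Level of the 4 genes called by limma, of HEI10 and AT1G03230 beside MRD1 and AT1G03220, and of PTR1 and VRN2 in the 12 seedling libraries, as log2(normalized reads + 5). Each point is a library, filled where deep and open where shallow, triangles are replicate 3, bars are means of 3 and the dotted line marks 0 reads. In vrn2-5 all points of MRD1 and PTR1 lie at or just above the dotted line.

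The same 4 genes behaved unlike each other in the lines that carry prt6-1. PRT6 transcript does not check that label, since it read 49.6, 142 and 93.8 normalized reads in prt6-1, above or within the Col-0 range of 0 to 57.7. AT1G03220 read 1266, 1630 and 1328 normalized reads in prt6-1 and 1573, 1306 and 1070 in vrn2-5 prt6-1, so the low level of vrn2-5 was not seen in the line that holds both alleles. The vrn2-5 difference there was -0.11 (SE 0.19), and the difference between the vrn2-5 effects, 1.66 (SE 0.26), missed the threshold (adjusted p = 0.325 by limma). That difference passed for 1 gene, MRD1 (0.00595% of the genes tested). QQS and AT3G29633 were as high in prt6-1 as in vrn2-5, at 194 to 301 and 61.0 to 99.3 normalized reads, and MRD1 was as low, at 0 to 1.83. In these 3 genes Col-0 was the genotype that stood apart. In rosettes the direction of vrn2-5 recurred wherever the gene was tested. AT1G03220 read 51.9 and 47.8 CPM in pif4-2 and 15.9 and 15.8 in vrn2-5 pif4-2, a log2 difference of -1.65 (SE 0.24). QQS read 0.920 and 1.81 CPM against 31.1 and 65.0, a difference of 5.13 (SE 0.60). AT3G29633 read 0.263 and 0.0412 CPM against 13.9 and 12.2, a difference of 6.39 (SE 0.81). The groups did not overlap for these 3, as they did not for 36% of all rosette genes tested (16.2% higher and 19.8% lower), and edgeR's quasi-likelihood test called no rosette gene (0 of 18561, 0.0%, with 441 or 2.38% at an unadjusted p under 0.05; adjusted p = 0.945 for each of the 3). DESeq2 called 7, these 3 and PTR1 among them (adjusted p = 0.00781 for AT1G03220, 1.70e-14 for QQS and 4.72e-09 for AT3G29633). MRD1 was not analysed in rosettes.

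Both lower genes had a neighbour that was also low in vrn2-5. AT1G03230, the next annotated gene after AT1G03220 (chromosome 1, 789820 to 791689, plus strand) and of the same protease family, read 202, 209 and 162 normalized reads in Col-0 against 107, 120 and 104 in vrn2-5. The groups did not overlap, and the difference was -0.76 (SE 0.17; adjusted p = 1 by limma, unadjusted p = 0.000908). Reads of close family members can be split between them by the counting, so the value of either is uncertain to that extent. In rosettes AT1G03230 stood at -0.21 (SE 0.27) where AT1G03220 stood at -1.65. AT1G03210, on the other side, differed by 0.13 (SE 0.39). HEI10, which sets the number of meiotic crossovers and is the nearest protein-coding gene after MRD1 (chromosome 1, 19963267 to 19966952, plus strand), read 30, 81.4 and 78.5 in Col-0 against 9.05, 5 and 3.35 in vrn2-5. This is 303 reads against 36, a difference of -2.58 (SE 0.56; adjusted p = 1 by limma, unadjusted p = 0.000764), with no overlap. HEI10 was also low in prt6-1, at 7.92 to 26.7, and in vrn2-5 prt6-1, at 0 to 10.8, as MRD1 was. MSL4 and MUM4, the next coding genes outward on either side, stood at -0.07 (SE 0.33) and -0.09 (SE 0.15). For QQS and AT3G29633 the loci on both sides are pseudogenes or noncoding RNAs that were not analysed here.

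DESeq2 on the recovered reads called 11 genes, 6 higher (0.0359% of 16736) and 5 lower (0.0299%), 0.0657% in all: the 4 above and 7 more. PTR1, a transporter of di- and tripeptides (chromosome 3, 20045603 to 20048745, minus strand), read 48.7, 67.3 and 69.6 in Col-0 and 0 in all vrn2-5 libraries, one of which was deep. With 273 reads against 0 it was at least 101-fold higher in Col-0 against the floor of 3 reads (DESeq2 adjusted p = 2.03e-07, limma adjusted p = 0.0703). PTR1 was present in all 6 libraries with prt6-1, at 22.9 to 173, and in rosettes fell from 67.4 and 67.9 CPM to 5.89 and 1.89 by DESeq2 (log2 difference -4.13; adjusted p = 8.67e-10, edgeR adjusted p = 0.945). AT1G22870 read 63.7, 74.4 and 36.7 in Col-0 against 7.46, 0 and 0 in vrn2-5 (DESeq2 adjusted p = 0.023), while in rosettes it stood at -0.08 (SE 0.41).

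The other DESeq2 calls besides VRN2 were 4 genes with no read in any Col-0 library. AT3G18535 read 38.9, 0 and 111 in vrn2-5, MYB3R-4, an activator of mitotic genes, 8.52, 25 and 33.5, and AT3G06530 9.59, 99.9 and 151. AT3G57790 had its 50 reads in vrn2-5 replicate 2 alone, at 250 normalized reads. Their adjusted p values by DESeq2 ran from 3.75e-05 to 0.023, and by limma each was 1. None of these 4 stood apart in rosettes, where their log2 differences were -0.22 to 0.14.

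Beyond the calls, 480 genes (2.85%) had an unadjusted p under 0.05 by limma, 226 higher (1.34%) and 254 lower (1.51%). Among these, 75 genes not called by any tool had an unadjusted p under 0.01, no overlap between the groups and the same sign in deep and in shallow libraries, 30 higher and 45 lower. The 8 largest on the higher side were BIG, UBP13, CRK42, CHY1, AT1G63100, AT4G32790, AT1G17520 and AT5G23750, at 2.87 to 4.39. All of them but BIG had 0 reads in both shallow Col-0 libraries and some in the deep one. Without BIG, their differences between the deep libraries ran from 0.05 for AT5G23750 to 2.40 for CRK42. Between the shallow libraries they ran from 3.75 for CRK42 to 4.65 for CHY1. CRK42, a cysteine-rich receptor-like kinase, read 0, 0 and 14.4 in Col-0 against 97.5, 94.9 and 40.2 in vrn2-5 (3.3, SE 0.61, limma adjusted p = 0.415). BIG, a very large protein needed for auxin transport, read 18.7, 3.54 and 8.95 in Col-0 against 222, 310 and 362 in vrn2-5 (4.39, SE 1.35; adjusted p = 1 by limma). It was at 0 in 4 of the 6 libraries with prt6-1 and at 413 in another, so its spread within a genotype was wide.

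The 8 largest on the lower side were AT5G06120, AAO3, AT3G04210, AT5G66810, AT5G22730, AT5G24240, HEI10 and AT1G10050, at -3.45 to -2.42. AAO3, the aldehyde oxidase of abscisic acid synthesis, read 142, 60.2 and 31.5 in Col-0 against 16, 0 and 0 in vrn2-5 (-3.13, SE 1.00; adjusted p = 1 by limma). AT5G24240 read 30, 70.8 and 51.7 against 4.79, 0 and 6.7, and was at 0 to 9.17 in all libraries with prt6-1. In rosettes the log2 differences of the 7 lower genes tested ran from -1.40 to -0.06, and those of the 8 higher genes from -0.97 to 0.18. Differences of these genes in seedlings were far larger than in rosettes. Picking the genes by their seedling difference favours that outcome, so it says nothing about the tissues, and no test was made.

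The precision of the comparison depended on the level of a gene. The median standard error was 0.28 and the median 95% half-width 0.63 on the log2 scale. For 10343 genes (61.5%) the interval lay within 2-fold either way, a share that went from 9.17% of genes under 20 normalized reads to 87.2% of genes at 300 to 1000. Of genes at 1000 or more, 860 in number, 0 had a difference of 1 or more either way. In simulated data with the depth of these libraries, limma called 15 of 66 genes changed 2-fold, 52 of 67 changed 4-fold and 60 of 67 changed 8-fold, among 16820 genes. Of the 16620 genes simulated without a change, limma called 6, edgeR 5 and DESeq2 10. These came beside the calls of changed genes, and the adjustment allows more false calls where more genes are called. They cannot be set against the 4, 4 and 11 calls made in the measured libraries. The simulation also left out the zeros against predicted reads and the split of replicate 3. In it, a change of 2-fold in a single gene was mostly not detected at this depth, while larger changes mostly were.

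The comparison of vrn2-5 prt6-1 with prt6-1 shares no library with that of vrn2-5 with Col-0, so it shows how far the differences recur. It called 0 genes (0.0%) by limma, edgeR or DESeq2, with 191 (1.14%), 151 (0.898%) and 102 (0.609%) at an unadjusted p under 0.05. Of the 226 genes higher in vrn2-5 at an unadjusted p under 0.05, 159 (70.4%) were positive there, where 50.1% of all genes tested were. Of the 254 lower genes 146 (57.5%) were negative. In rosettes 110 of the 212 higher genes tested (51.9%) were positive and 142 of the 234 lower genes (60.7%) negative, where 48.9% of all genes were positive. Genes are not independent replicates, and these shares carry no test.

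Genes induced by PIF factors and by shade, the growth genes in the study's title, leaned upward as a group without a single call. Of 29 tested members 26 were positive, with a median of 0.39 where all genes had -0.002, and 4 (13.8%) had an unadjusted p under 0.05 on the higher side against a background of 1.34%. The members were listed with earlier results of these libraries known, so the count is a description. CKX5, a cytokinin oxidase, read 26.2, 42.5 and 50.2 in Col-0 against 75.6, 115 and 70.4 in vrn2-5, without overlap (1.05, SE 0.31; adjusted p = 1 by limma). The small auxin-up genes SAUR23 and SAUR20, linked to cell expansion, stood at 0.81 (SE 0.31) and 0.90 (SE 0.39), and PAR1, which restrains the shade response, at 0.46 (SE 0.20). The homeodomain factors HAT2 and ATHB2 were both at 0.65 (SE 0.33 and 0.34). Negative members were YUC2 and YUC5, flavin monooxygenases of auxin synthesis, and the cytokinin oxidase CKX6. The mean of the list relative to Col-0 was 0.45, 0.39 and 0.28 in the vrn2-5 libraries and 0.17, -0.37 and 0.19 in Col-0. Each vrn2-5 library lay above each Col-0 library on this scale, the closest pair being vrn2-5 replicate 3 and Col-0 replicate 3. In vrn2-5 prt6-1 against prt6-1 the count was again 26 of 29 (median 0.80), and in rosettes, where PIF4 is mutated in both lines, 11 of 25 (median -0.14).

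**Figure D3:**
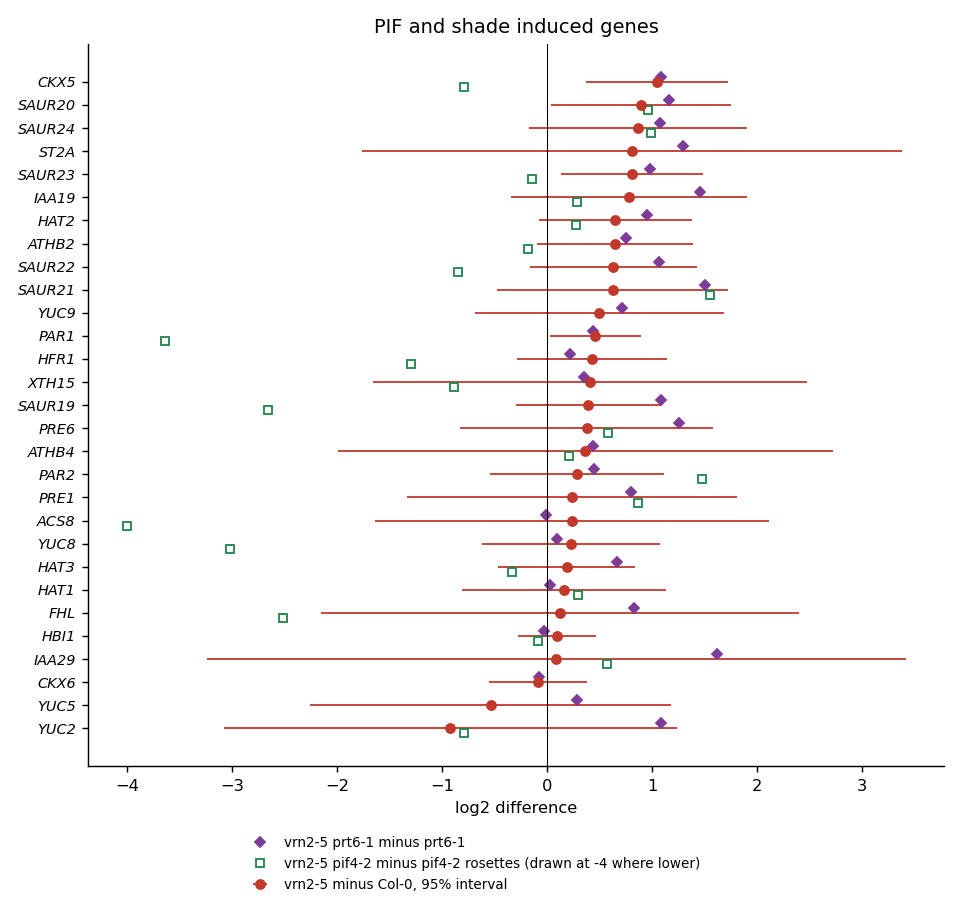
Log2 differences of the 29 tested genes of the PIF and shade list, ordered by vrn2-5 minus Col-0 (red, with 95% intervals), beside vrn2-5 prt6-1 minus prt6-1 (purple) and vrn2-5 pif4-2 minus pif4-2 in rosettes (green squares, drawn at -4 where lower). Most red points lie between 0 and 1 with intervals that cross 0, and rosette values scatter to both sides.

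The PIF genes themselves did not rise. PIF4 read 592, 524 and 389 in Col-0 against 296, 210 and 583 in vrn2-5, with overlap through vrn2-5 replicate 3 (-0.57, SE 0.34; adjusted p = 1 by limma). PIF5 and PIF1 stood at -0.25 (SE 0.22) and -0.29 (SE 0.26), and of 15 tested genes of light reception and signalling 6 were positive (median -0.03). The photoreceptors PHYA, PHYB, PHYC, PHYE, CRY1 and CRY2 lay between -0.17 and 0.08, and PHYD at -0.31 (SE 0.26). COP1, the ligase that represses light responses in the dark, was listed at 0 in both shallow Col-0 libraries and in vrn2-5 replicate 2 and at 122 to 181 in the others, so its value of 1.75 (SE 1.40) carries little information. Among 13 early auxin genes 8 were positive (median 0.23). IAA3, an auxin repressor gene, read 472, 351 and 404 in Col-0 against 598, 605 and 593 in vrn2-5, without overlap (0.56, SE 0.20; adjusted p = 1 by limma), and 0.50 was its difference in vrn2-5 prt6-1 against prt6-1.

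Classical targets of Polycomb in development showed little. FLC, the repressor that VRN2 is known to silence, read 82.5, 56.6 and 102 in Col-0 against 156, 135 and 124 in vrn2-5, without overlap (0.78, SE 0.24, 95% interval 0.25 to 1.3; adjusted p = 1 by limma, unadjusted p = 0.00746). It stood at 0.34 (SE 0.24) in vrn2-5 prt6-1 against prt6-1 and was not tested in rosettes. Of the 8 tested genes of the FLC clade and flowering integrators 3 were positive (median -0.07), with MAF1, MAF2 and MAF3 at 0.00, 0.16 and 0.05. MAF4 stood at -0.91 (SE 0.68), with overlap between the groups. SOC1, which promotes flowering downstream of FLC, stood at -0.44 (SE 0.36). Of 13 floral identity genes 3 were in the table and AP2 and PI were tested. AP2 was at -0.12 (SE 0.14), and PI, at 11.2, 7.08 and 69.9 in Col-0 against 19.4, 0 and 0 in vrn2-5, at -1.53 (SE 0.76). The meristem genes STM, KNAT1 and KNAT6 lay between -0.14 and 0.15. None of the 12 seed maturation genes was in the table.

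**Figure D4:**
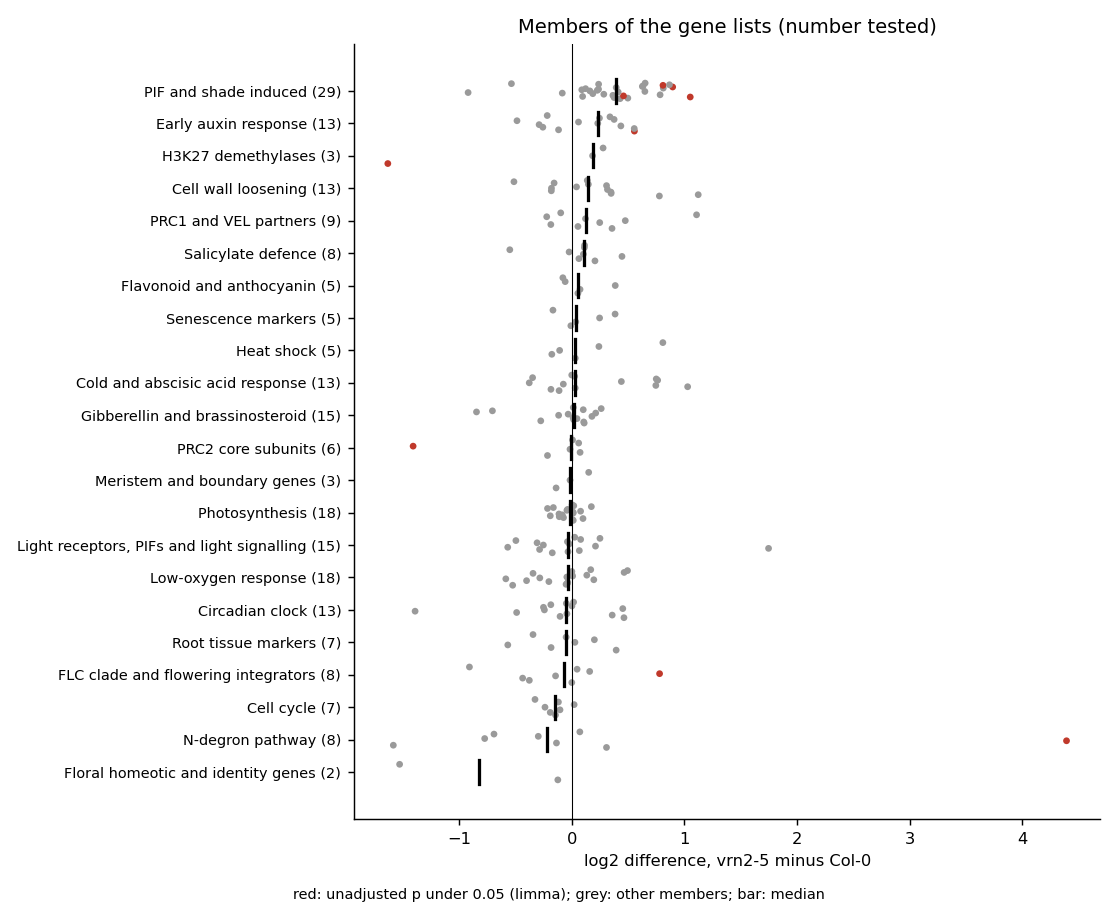
Log2 difference between vrn2-5 and Col-0 for each tested member of the 22 gene lists with members tested, ordered by list median (black bar), with the number tested in brackets. Red points have an unadjusted p under 0.05 by limma. The PIF and shade list has the highest median at 0.39, and the floral list at the bottom holds 2 genes.

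Most other programmes had medians near that of all genes. Low-oxygen genes, which respond to the N-degron pathway, had 6 of 18 positive (median -0.04), gibberellin and brassinosteroid genes 10 of 15 (median 0.02), photosynthesis genes 9 of 18 (median -0.02), clock genes 5 of 13 (median -0.05), salicylate defence genes 6 of 8 (median 0.11) and cell wall loosening genes 9 of 13 (median 0.15). Cell cycle genes had 1 of 7 positive (median -0.15). None of these lists held a member at an unadjusted p under 0.05. Genes of the N-degron pathway list had 3 of 8 positive (median -0.22), with BIG alone at an unadjusted p under 0.05 by limma. Several lists moved with replicate 3 rather than genotype: relative to the Col-0 mean, flavonoid genes stood at -1.21 and -1.17 in replicate 3 of Col-0 and vrn2-5 and at 0.56 to 0.79 in the other 4 libraries, and cold and abscisic acid genes at 0.81 and 1.3 against -0.50 to -0.24. Clock genes showed this split too, at 0.57 and 0.31 against -0.35 to -0.27, and so did photosynthesis genes, at -0.59 and -0.51 against 0.15 to 0.44. Senescence markers followed the same split, at 0.69 and 0.59 against -0.56 to -0.09, and their part in any result was not tested. Root markers were present, at -0.49 to 0.29 in Col-0 and -0.53 to 0.16 in vrn2-5. In bulk tissue fewer cells of a type and less RNA per cell cannot be told apart.

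The median transcript difference was close to 0 in each chromatin class, while the share of genes at an unadjusted p under 0.05 was 5.62% among bound genes and 7.04% among those bound and lower in H3K27me3, against 2.85% of all genes tested. Overlapping peaks or regions were merged across replicates, a merged one needed at least 2 of the 3, and a gene belonged to a class when the merged one met its body or 1 kb upstream. A gene can therefore carry a class through replicates that lie outside its own window, as QQS does. The 1637 tested genes with H3K27me3 lower in vrn2-5 had 820 positive, a median of 0.00003, and 26 higher and 27 lower at an unadjusted p under 0.05. That is 1.59% and 1.65% against 1.34% and 1.51% of all genes tested. The 516 genes bound by VRN2-YFP had 234 positive, a median of -0.03, and 11 higher and 18 lower, or 2.13% and 3.49%. Genes both bound and lower in H3K27me3 numbered 199, with 100 positive, a median of 0.007, and 8 higher and 6 lower, or 4.02% and 3.02%. The 497 genes with higher H3K27me3 had 225 positive, a median of -0.04, and 7 higher and 7 lower, or 1.41% each. Both genes called higher by limma, QQS and AT3G29633, were among these 497, where 2 of all 16820 genes tested (0.0119%) were called higher. QQS was in the class with lower H3K27me3 as well. The 11745 genes with neither peak nor mark had a median of 0.002. When at least 2 replicates had to meet the window of the gene itself, a rule added after seeing the data, the classes held 560 bound, 1301 lower and 374 higher genes with medians of -0.04, 0.008 and -0.05, and QQS left the lower and the higher class. Which library of the H3K27me3 tables is vrn2-5 was read from the name of the comparison, so every direction of the mark rests on that reading.

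**Figure D5:**
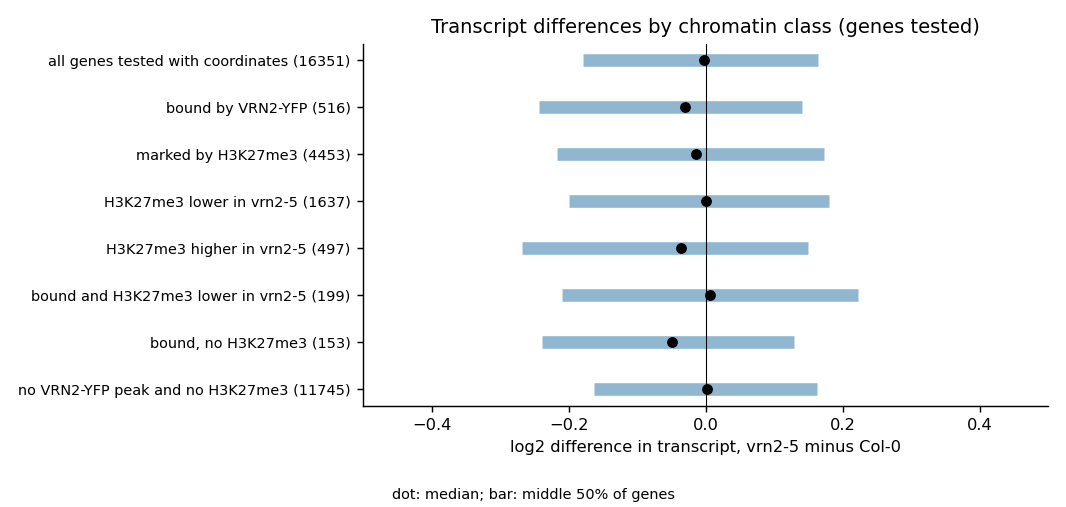
Median log2 difference in transcript between vrn2-5 and Col-0 (dot) and the middle 50% of genes (bar) for each chromatin class, with the number of genes tested in brackets. The medians of all classes lie between -0.05 and 0.01 and the bars overlap almost fully.

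Single genes illustrate these classes and do not stand for them. AT4G00250 was lower in H3K27me3 in all 3 replicates, at the authors' ratios of 0.735, 0.818 and 0.910. Its transcript read 3.75, 3.54 and 2.31 in Col-0 against 16.2, 9.99 and 30.2 in vrn2-5, without overlap (1.45, SE 0.42). The gene was not called and its level was low, with 1, 1 and 8 reads in Col-0. In vrn2-5 prt6-1 against prt6-1 it stood at 1.67 (SE 0.42). XTH19, of the cell wall list, was also lower in the mark in all 3 replicates, at ratios of 0.700, 0.808 and 0.643. Its transcript was lower in vrn2-5, without overlap (-0.51, SE 0.24). MAF4, at ratios of 0.776, 0.777 and 0.808, stood at -0.91 (SE 0.68) with overlap. In the class as a whole 26 genes were higher and 27 lower at an unadjusted p under 0.05 by limma. CKX5 was both bound and lower in H3K27me3. Peaks stood over it in VRN2-YFP replicates 1 and 2, with the authors' fold over background of 2.1 and 1.96, and the authors' ratio of H3K27me3 in vrn2-5 over Col-0 was 0.930, 0.909 and 0.975, under their false discovery rate of 0.05 in replicates 1 and 2. AT3G29633, silent in Col-0, lay in regions with more H3K27me3 in vrn2-5 in all 3 replicates, at ratios of 3.32, 1.70 and 1.48. QQS overlapped regions at 1.22 in replicate 1 and 0.798 in replicate 3 by this table, in opposite directions. At FLC a VRN2-YFP peak was called in replicate 1 only, and the H3K27me3 ratios were 1.05, 0.956 and 1.00, so FLC is in neither class. NLM1, an aquaporin gene, and AT1G76170 were bound and read lower in vrn2-5, at 48.7, 70.8 and 36.1 against 15.2, 25 and 16.8 for NLM1 and 45, 42.5 and 41.3 against 20.5, 0 and 10.1 for AT1G76170. Neither passed (adjusted p = 1 by limma). VRN2 itself carried VRN2-YFP peaks in all 3 replicates, in plants that hold the transgene with its VRN2 promoter.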

How the data were processed

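The submitters' processing notes name TAIR10 as the build, Bowtie with DESeq2 for the RNA, BWA with SICER for H3K27me3, and MACS2 and MACS3 for VRN2-YFP; versions and settings are not given. Seedling values, as the authors deposited them, are a normalized signal, the reads of a gene over 1 size factor per library. Dividing by the value of a single read gave whole numbers for 100% of them (tolerance 0.01). The test was limma (version 3.58.1, R 4.3.3) with a prior that follows the level, on log2(value + 5), genotype as the only term over the 12 seedling libraries, with Benjamini-Hochberg adjustment over 16820 genes with a mean of at least 10 and a threshold of 0.05. Fold changes on this scale understate changes of low genes. edgeR (4.0.16) and DESeq2 (1.42.0) were run on the recovered reads. In rosettes the authors deposited raw read counts, tested by the quasi-likelihood method of edgeR with TMM scaling for 18561 of 21884 genes; CPM are TMM-scaled. That table also gave gene coordinates, missing for 650 seedling genes. The authors' deposited log2 fold changes and p-values in it were not used. Peak lists deposited by the authors, 1 per replicate, give the fold over background and the -log10 of the q-value. The H3K27me3 tables, per the file headers, give the ratio of normalized reads and false discovery rates (adjusted p-values) in each direction.

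Named genes were those called by limma; those called only by DESeq2 or edgeR; the 8 highest and 8 lowest with an unadjusted p under 0.01, no overlap and 1 sign in deep and shallow libraries; neighbours of called genes; the complex's subunits; the 2 members of each list, and 4 of each chromatin class, with the smallest p. Genes named outside this rule (TIC, NLP7 and other list members) were chosen after their values were seen. The members and lists were chosen with earlier results of these data known. Deviations of same-numbered libraries of Col-0 and vrn2-5 correlated at 0.02, 0.19 and 0.33. The replicate 3 libraries went together, as Col-0 replicate 3 correlated at -0.33 with vrn2-5 replicate 2. Numbers 1 and 2 showed no pairing, as Col-0 replicate 1 correlated at 0.17 with vrn2-5 replicate 2. The tests were tested on simulated data.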

Additional observations from a re-analysis of the deposited data

Results flagged for a closer look

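The vrn2-5 difference of MRD1 was not the same in the 2 PRT6 backgrounds. The interaction was 6.18 on the log2 scale (SE 0.59, adjusted p = 0.00895 by limma). MRD1 was near 0 reads in prt6-1 already, so a fall with vrn2-5 could not be seen there. The interaction missed by edgeR (adjusted p = 0.0532). It also missed by limma with a pseudocount of 1 (adjusted p = 0.0762) and without Col-0 replicate 1 (adjusted p = 0.0650).

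For 3 genes both rosette libraries of vrn2-5 pif4-2 lay on the other side of pif4-2 from where all seedling libraries of vrn2-5 lay against Col-0. CHY1, a hydrolase of peroxisomal valine breakdown, read 0, 0 and 59.7 normalized reads in Col-0 seedlings and 69.2, 84.9 and 171 in vrn2-5. It differed by -0.40 in rosettes. AT4G32790 differed by 2.99 in seedlings and -0.51 in rosettes, and BIG by 4.39 and -0.97. Between the deep seedling libraries alone the differences were 0.20 for CHY1, 0.97 for AT4G32790 and 4.02 for BIG. Between the shallow ones they were 4.65, 4.01 and 4.58. These differences between seedlings and rosettes were not tested, and the tissues also differ in background and in depth. Rosette groups of 2 did not overlap for 36% of all genes tested, and AT4G32790 separated by 11.9127 against 11.8897 CPM only.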

How the results depend on the processing

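The count of 4 genes was 3 to 5 in 8 other settings. TMM scaling, edgeR and the replicate block called the same 4 genes. Pseudocount 20 called 3 of them, without AT3G29633 (limma adjusted p = 0.133), and pseudocount 1 called 4 genes, 3 of them shared. The count was 2 with a minimum mean of 50, 1 with the 6 libraries alone and 11 by DESeq2. Chosen after seeing the data, voom gave 8 and replicates 1 and 2 alone 9. Leaving out a library gave 1 to 23. The background difference, 1 gene (MRD1), was at pseudocount 1 another gene, AT3G29633, and became 0 at a mean of 50, by edgeR, by voom and with replicates 1 and 2 alone, 6 by DESeq2, and 0 to 5 on leaving out a library. Rosettes had 7 calls by DESeq2, 3 with the replicate block (which only shares numbers; correlation 0.06) and 2 to 11464 with a lone library assumed to vary like the other group. AT3G57790, at 1.89, ranged from 0 (without vrn2-5 replicate 2) to 2.84 on leaving out a library and reversed to -0.86 by voom. MRD1 missed at a mean of 50 (adjusted p = 1 by limma), and QQS at pseudocount 1 (adjusted p = 0.42 by limma). The cause was not tested. Leaving out the 790 genes with unpredicted zeros gave 6 calls, the same 4 with PTR1 and AT1G22870. A gene at or near 0 in every library of a genotype, as MRD1, AT3G29633 and PTR1 were, could not be flagged by that rule. That MRD1, AT3G29633 and PTR1 stayed in is therefore no support for them. Depth limits genes under 20 normalized reads most.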

Other observations

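Genes encoded in the plastid, which polyadenylated libraries capture poorly, were positive for 22 of 27 tested in vrn2-5 against Col-0. They took 0.0155%, 0.0203% and 0.0237% of the normalized reads of Col-0 against 0.0286%, 0.0400% and 0.0174% for vrn2-5, so the groups overlapped through replicate 3. None passed by limma.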
